A study of Homo sapiens with 13 samples.

Results

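Keratins are the intermediate filament proteins of epithelial cells. A filament is built from obligate pairs of a type I (acidic) and a type II (basic) keratin, and which pair a cell makes is a classical mark of its kind. KRT8 (type II) and KRT18 (type I) form the pair of simple, single-layered epithelia and are joined there by KRT7 (type II) and KRT19 (type I), whereas KRT5 (type II) and KRT14 (type I) form the pair of the basal layer of stratified epithelia. KRT17 (type I) is made in epithelial appendages and in activated keratinocytes, KRT80 (type II) has been described near desmosomes and cell borders, and KRT23 (type I) is a less studied member of the type I cluster. The amnion is a simple epithelium, and its cells carry simple keratins.

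The 9 genes KRT7, KRT8, KRT18, KRT19, KRT23, KRT5, KRT14, KRT17 and KRT80 were taken by gene symbol from both tables of counts, among 61541 human features, and each symbol occurred once. All libraries were made from bulk RNA of RUES2, an established human embryonic stem cell line, with the genotype GFP::SMAD4 fusion, in which SMAD4, the shared transducer of BMP and Nodal signals, carries GFP. In the time series, cells received 100 ng/mL BMP4 with 5 uM IWP2, which blocks the secretion of Wnt ligands, and ROCK inhibitor, and were collected at 0 h (n = 2), 4, 12, 20, 28 and 42 h (n = 1 each). The labels of the 0 h libraries name this treatment too, and 0 h was read as the start of treatment. In the dose response, the same mixture was given for 5 h with 0, 10, 30, 100 or 300 nM LDN-193189, an inhibitor of BMP receptor kinases (n = 1 each), beside a library kept in mTeSR for 5 h, called untreated here (n = 1). The series asked which genes follow the level and the duration of BMP signaling. The time series was made with rRNA depletion and the dose response with polyA selection and another extraction kit, so levels were compared within a series only.

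The libraries held 37957385 to 71333471 counts in the time series and 15600931 to 33989998 in the dose response, where the untreated library was the smallest. Levels are given as CPM, counts scaled by the library total, with 0 h as mean ± SD over its 2 libraries, which were not stated to be separate cultures. Mitochondrial transcripts took 2.01% to 7.60% of counts in the time series, with 7.60% and 4.29% at 0 h and 2.01% at 42 h, and 4.22% to 4.49% with LDN against 7.89% in the untreated library. The part of these differences in the keratin values was not tested. Among markers of cell types, 6 of 8 pluripotent cell genes fell over time (summed level 8420 CPM at the highest and 3707 CPM at 42 h). Of 10 amnion genes, 8 rose (41.9 to 6595 CPM), where 17.5% of all tested genes fell over time and 19.2% rose. VTCN1, among the 8, stood at 0.457 CPM at 28 h and 10.1 CPM at 42 h. It passed the filter of a mean of 1 CPM only through its 42 h library. The summed level of 10 trophoblast genes was 75.8 CPM at the highest and 14.2 CPM at 42 h. Most of this was SDC1, with 62.5 and 72.5 CPM at 0 h and 8.51 CPM at 42 h. Other trophoblast genes went either way, and HLA-G went from 0.790 and 1.11 to 2.81 CPM. The sum of 7 primitive streak and mesoderm genes stayed between 4.19 and 10.2 CPM, while its members went either way. TBX6 went from 1.40 and 1.54 CPM at 0 h to 6.16 CPM at 42 h. FOXA2 went from 3.19 and 2.92 to 0.114 CPM. Together 6 neural genes went from 78.7 to 2.83 CPM, a fall carried by OTX2 (71.8 and 76.3 CPM at 0 h, 0.686 CPM at 42 h). Other neural genes went either way, and SIX3 went from 0.105 and 0.154 to 0.882 CPM. In bulk samples, fewer cells of a type and less RNA per cell cannot be told apart.

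The genes lie in both keratin clusters. On GRCh38 (GENCODE 44), KRT80 (chromosome 12, 52168996 to 52192014), KRT7 (52232520 to 52252186), KRT5 (52514575 to 52520530) and KRT8 (52897187 to 52949954) are in the type II cluster, at whose edge lies KRT18 (52948871 to 52952906), the type I gene outside its own cluster. KRT23 (chromosome 17, 40922700 to 40937646), KRT19 (41523617 to 41528308), KRT14 (41582279 to 41586895) and KRT17 (41619442 to 41624842) are in the type I cluster. Long isoforms of KRT8 overlap KRT18 on the opposite strand, and of the 100-base stretches of the main KRT18 transcript 18.5% also occur in KRT8 transcripts. Neither the strand setting of the counting nor the read length is given in the sources used here, so reads from this stretch may be split between KRT8 and KRT18. For KRT7 the share was 8.32%, all with the overlapping antisense RNA KRT7-AS, for KRT8 7.12%, most of it with the pseudogene KRT8P3, for KRT14 6.05%, mostly with KRT16, and for KRT5 1.64%. It was 0.427% for KRT23, 0.353% for KRT17 and 0 for KRT19 and KRT80.

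The sequences of KRT17 and its near copies are shown because these genes are alike over much of their coding sequence. Few 100-base stretches of KRT17 (0.353%) occur in another gene, and how far its counts depend on this likeness was not tested. KRT17 shares its coding sequence with KRT14 (86.4% identity over 1290 aligned bases) and with KRT16 (81.2% over 1265), the type I partner of activated keratinocytes, and KRT14 and KRT16 were identical over a run of 158 bases. The window below is the 90-base stretch with the fewest differences, in exon 6 of each gene, at chr17:41620676-41620765 for KRT17, chr17:41610348-41610437 for KRT16 and chr17:41583252-41583341 for KRT14, all on the minus strand. KRT16 differs there from KRT17 at 5 bases and KRT14 at 4, and capitals mark the 7 positions at which any of the 3 genes differs.
KRT17: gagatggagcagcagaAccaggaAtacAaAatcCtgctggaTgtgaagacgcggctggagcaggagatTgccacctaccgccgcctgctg
KRT16: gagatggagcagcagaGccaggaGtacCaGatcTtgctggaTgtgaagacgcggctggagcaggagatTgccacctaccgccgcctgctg
KRT14: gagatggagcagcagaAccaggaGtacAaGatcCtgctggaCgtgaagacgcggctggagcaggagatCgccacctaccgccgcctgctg

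The simple epithelial keratins were present before BMP4 was added and became some of the most abundant mRNAs of the cells by 42 h. KRT8, the type II member of the main pair, stood at 277 and 473 CPM in the 0 h libraries (375 ± 139, SD, n = 2). At 4, 12, 20, 28 and 42 h it was 378, 804, 1964, 2997 and 7033 CPM, so that every library from 12 h lay above both 0 h libraries. KRT18, its type I partner, stood at 249 and 346 CPM at 0 h (298 ± 68.6), then at 204, 356, 747, 1090 and 2646 CPM. The 4 h library was below both 0 h libraries for KRT18, the 12 h library was just above them, and the later ones were well apart. KRT19, a type I keratin that lacks most of the usual tail domain, stood at 88.5 and 154 CPM at 0 h (121 ± 46.3), then at 103, 169, 378, 676 and 1719 CPM. Its 4 h library lay between the 0 h libraries and its later libraries above them.

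KRT7, the second type II keratin of simple epithelia, started lower and moved later. Its level was 9.93 and 14.3 CPM at 0 h (12.1 ± 3.11, n = 2) and 11.9 and 11.2 CPM at 4 and 12 h, all within the 0 h range. In the 3 later libraries it was 29.1, 99.7 and 503 CPM. Between 28 and 42 h KRT7 differed 5.05-fold, against 2.35-fold for KRT8, 2.43-fold for KRT18 and 2.54-fold for KRT19. At 28 h KRT7 had reached 19.8% of its 42 h level, against 42.6% for KRT8, 41.2% for KRT18 and 39.3% for KRT19. Each of these steps rests on a single library per time.

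**Figure D1:**
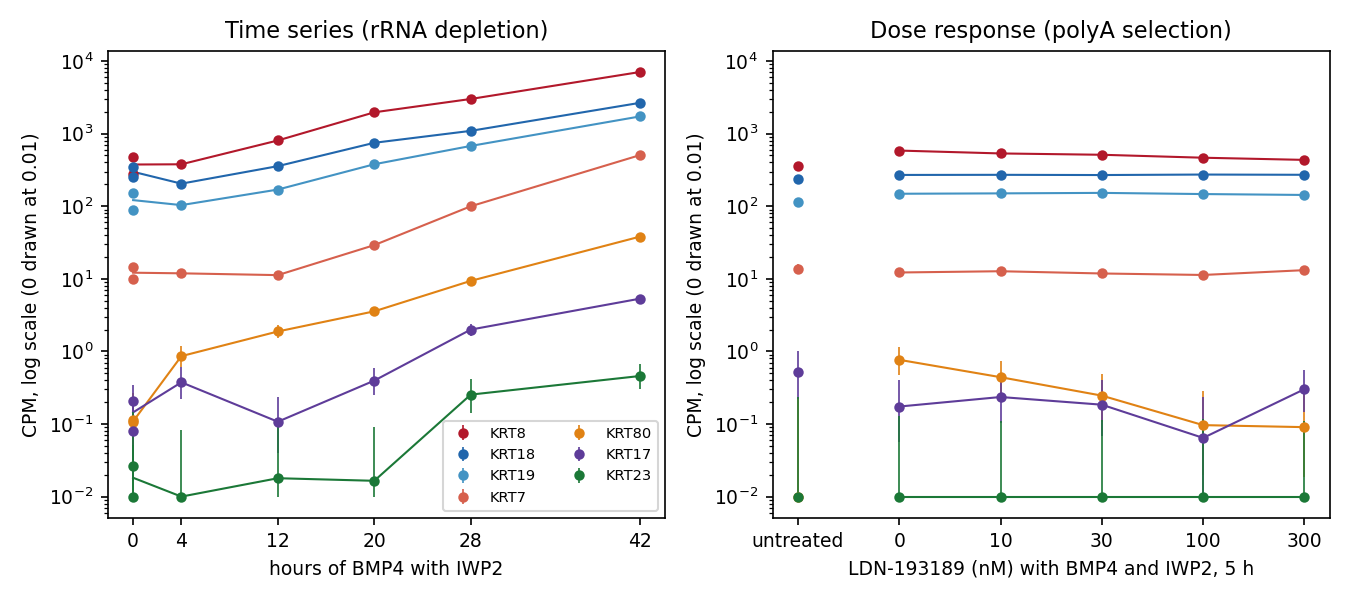
Levels of 7 keratins in CPM (log scale) by hours of BMP4 with IWP2 (left) and by LDN-193189 dose at 5 h, with the untreated library apart (right). Each point is a library, bars are exact 95% Poisson intervals of the counts, lines pass through the mean of the 2 libraries at 0 h, and values of 0 are drawn at 0.01. KRT8 stands highest in every library, at 7033 CPM at 42 h, and among the LDN libraries KRT8 and KRT80 have their highest value at 0 nM.

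Of the remaining genes, KRT80 and KRT17 came up from near the detection limit. KRT80 had 4 and 8 counts at 0 h (0.105 and 0.112 CPM), and 39, 105, 216, 553 and 2323 counts at the later times, the last being 38.0 CPM. Each KRT80 value was higher than the one before it, and its 0 h libraries differed less from each other than those of the other 5 genes tested over time. KRT17 had 3 and 15 counts at 0 h, and 17, 6, 24, 118 and 325 counts at the later times, the last being 5.31 CPM. Up to 20 h the KRT17 counts gave overlapping 95% Poisson intervals for most pairs of libraries, and the 28 and 42 h libraries stood above all of them.

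KRT23 was close to absent until 28 h, with 1 and 0 counts at 0 h, and 0, 1, 1, 15 and 28 counts at the later times (0.458 CPM in the last). With 28 counts against 1 in the summed 0 h libraries, the exact 95% counting interval of the ratio ran from 8.27 to 2045. KRT5 and KRT14, the defining pair of stratified epithelia, were not detected beyond single counts. KRT5 had 1 count in a 0 h library, 1 at 12 h and 2 with 10 nM LDN, and KRT14 had 1 count in a 0 h library. At 42 h both were at 0 of 61196400 counts, which allows a level of up to 0.0490 CPM (3 counts). Of the stratified keratins the defining pair was therefore missing at this depth, and KRT17 was the member with counts. Intervals and limits of this kind cover counting error only.

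Of the 9 genes, 6 passed the filter of a mean of 1 CPM over the time series, and KRT23, KRT5 and KRT14 did not. With hours as a linear term (edgeR quasi-likelihood test, Benjamini-Hochberg adjustment over 15976 genes), all 6 rose, where 19.2% of all tested genes were called higher and 17.5% lower over time. Over the 42 h the fitted log2 change was 7.54 ± 0.64 (SE) for KRT80 (adjusted p = 0.00013), 5.57 ± 0.57 for KRT7 (0.00029) and 5.31 ± 0.75 for KRT17 (0.00131). It was 4.70 ± 0.31 for KRT8 (4.73e-05), 4.21 ± 0.35 for KRT19 (0.000117) and 3.54 ± 0.35 for KRT18 (0.000255). With limma on log2(FPKM + 1), KRT80 was 3.27 and KRT17 2.72, and without the 42 h library KRT7 was 4.37, all still called. The median over these 6 was 5.00, beside -0.0047 over all tested genes, but a filter on the mean favours genes that end high. KRT23 entered the fit without the filter, at 6.71 ± 1.11 (adjusted p = 0.000916).

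Each time was also set against 0 h, in a fit whose only residual degree of freedom comes from the pair of 0 h libraries. Each later library is thus assumed to vary like those. edgeR moderates this degree of freedom over genes. The standard errors and p-values therefore rest largely on other genes and not on a keratin's own spread at 0 h. At 4 h, KRT80 alone of the 6 rose (log2 2.86 ± 0.52, adjusted p = 3e-06), where 4.39% of tested genes were called higher. KRT18 at 4 h gave -0.63 ± 0.36 (adjusted p = 0.599), a difference that did not pass the test. At 12 h KRT8 also rose (1.06 ± 0.35, adjusted p = 0.029, background 7.04%), a call that was lost with DESeq2 (adjusted p = 0.0614). At 20 h KRT80, KRT8, KRT19 (1.68 ± 0.33), KRT18 (1.36 ± 0.34) and KRT7 (1.30 ± 0.32) were called higher, 5 of 6 against 12.4% of all tested genes, and KRT17 was not (1.35 ± 0.62, adjusted p = 0.12). At 28 h all 6 had risen (background 13.3%), with KRT17 at 3.71 ± 0.53 (adjusted p = 6.94e-11).

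At 42 h all 6 were higher than at 0 h (background 19.9%), of which KRT17 passed the filter (mean 1.21 CPM) only through its 42 h library. The log2 change against 0 h was 8.64 ± 0.43 for KRT80, 5.61 ± 0.35 for KRT7, 5.28 ± 0.52 for KRT17, 4.47 ± 0.36 for KRT8, 4.06 ± 0.34 for KRT19 and 3.39 ± 0.34 for KRT18, with adjusted p of 1.86e-21 or below. Neighbours in this order from KRT7 downward differed by less than 2 standard errors of their difference, taken as independent, and the step from KRT80 to KRT7 (3.04 ± 0.55) exceeded that. On library totals in place of the TMM scaling, which corrects for a few abundant genes taking up reads, the median log2 ratio of 42 h to 0 h over all tested genes moved from -0.01 to -0.25. The 6 changes kept their direction and their call.

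**Figure D2:**
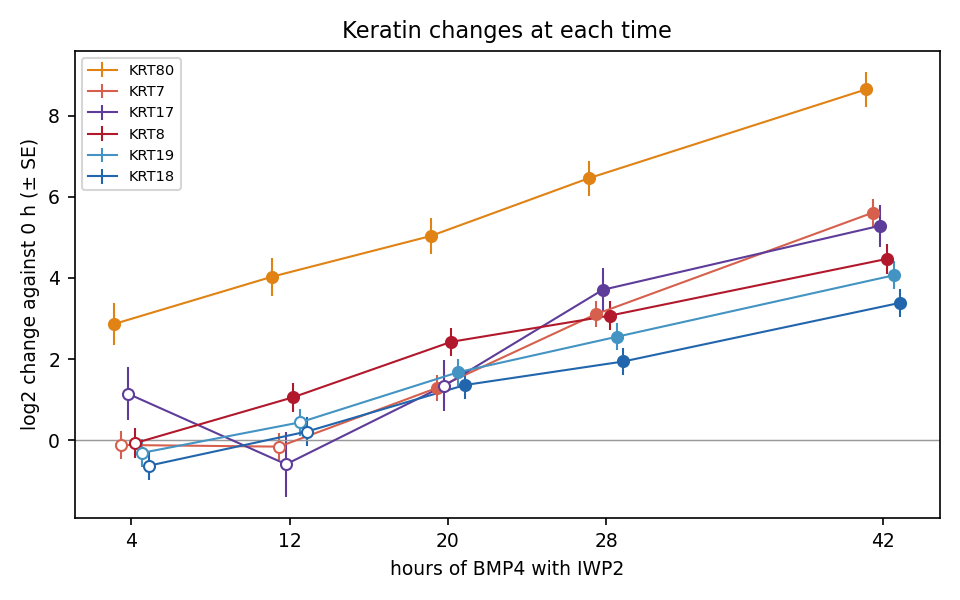
Fitted log2 change of 6 keratins at 4, 12, 20, 28 and 42 h against 0 h, with bars for the standard error and points shifted sideways for legibility. Filled points passed adjusted p under 0.05 and open points did not. KRT80 is filled at every time, KRT8 from 12 h, KRT18, KRT19 and KRT7 from 20 h and KRT17 from 28 h.

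The 0 h libraries did not give the same keratin levels. In replicate 2 the ratio to replicate 1 was 1.71 for KRT8, 1.74 for KRT19, 1.39 for KRT18, 1.44 for KRT7, 2.66 for KRT17 and 1.06 for KRT80, while the median log2 ratio over 15933 genes was -0.03. A larger ratio in either direction was found for 6.07% of genes in the case of KRT8, 5.38% in that of KRT19 and 0.703% in that of KRT17. Replicate 1 was also the 0 h library with the higher mitochondrial share (7.60%) and the lower total, and the part of these in the keratin ratios was not tested. Without both 0 h libraries, an alternative chosen after seeing these values, the trend over 4 to 42 h still called all 6 genes higher.

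**Figure D3:**
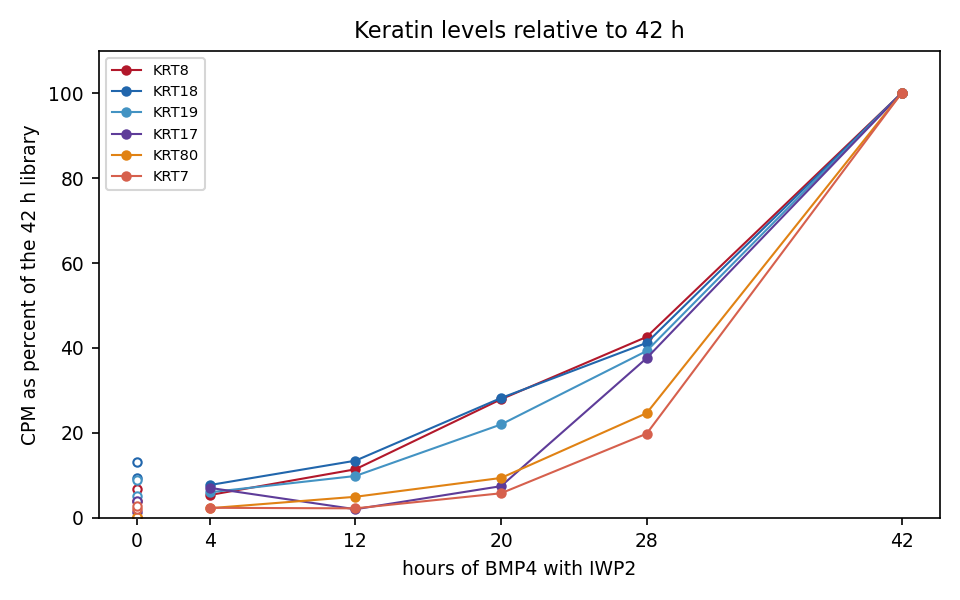
CPM of 6 keratins as a percent of their own 42 h library, by hours of BMP4 with IWP2, with open points for the 2 libraries at 0 h. At 28 h KRT8, KRT18, KRT19 and KRT17 lie between 37.6% and 42.6%, and KRT80 (24.7%) and KRT7 (19.8%) lie lower.

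Levels of different keratins were compared as FPKM, which the authors computed per length of transcript, and within a library. At 42 h the order was KRT8 (4624 FPKM), KRT18 (2305), KRT19 (1534), KRT7 (387), KRT80 (10.6), KRT17 (7.39) and KRT23 (0.25), with KRT5 and KRT14 listed at 0. Among 19954 protein-coding genes of the nuclear genome, KRT8 ranked 3 at 42 h, KRT18 12, KRT19 29 and KRT7 226. At 0 h KRT8 ranked 452 and 293 in the 2 libraries, KRT18 367 and 302, KRT19 1167 and 709, and KRT7 7509 and 6661. The 9 genes together took 0.0625% and 0.0988% of all counts at 0 h and 1.19% at 42 h. The order of KRT8 and KRT18 was not the same in the 0 h libraries: KRT18 was higher in replicate 1 (221 against 186 FPKM) and KRT8 in replicate 2 (318 against 307).

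The balance within the KRT8 and KRT18 pair moved toward the type II partner. The FPKM ratio of KRT8 to KRT18 was 0.840 and 1.04 at 0 h (0.938 ± 0.139, n = 2), and 1.40, 1.71, 1.98, 2.08 and 2.01 at the later times. Every later library was above both 0 h libraries, and the values from 20 h on differed from each other by less than the 0 h libraries did. In counts, KRT8 made up 52.6% of the pair (95% Wilson interval 51.9 to 53.3) and 57.7% (57.3 to 58.1) at 0 h, and 72.7% (72.5 to 72.8) at 42 h. Summed over the main keratins, the ratio of type II (KRT7 and KRT8) to type I (KRT18 and KRT19) was 0.648 and 0.740 at 0 h and 1.31 at 42 h. KRT19 relative to KRT18 was 0.362 and 0.457 at 0 h, 0.492 to 0.520 from 4 to 20 h, and 0.637 and 0.666 in the last 2 libraries.

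Slopes of 4 such log2 ratios over each series were tested with an exact permutation test over libraries, two-sided and chosen after the ratios were seen, with adjustment over 8 tests. Over the 42 h the slope was 1.13 for KRT8 to KRT18 (exact permutation p = 0.0218, adjusted 0.0317), 0.94 for type II to type I (p = 0.0238, adjusted 0.0317) and 0.68 for KRT19 to KRT18 (p = 0.0107, adjusted 0.0317). It was 0.62 for KRT7 to KRT8 (exact permutation p = 0.531), a ratio that went down and then up, from 5.13% and 3.93% at 0 h to 1.71% (12 h) and 8.38% (42 h). The stretch shared by KRT18 and KRT8 limits these ratios, and its part was not tested.

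**Figure D4:**
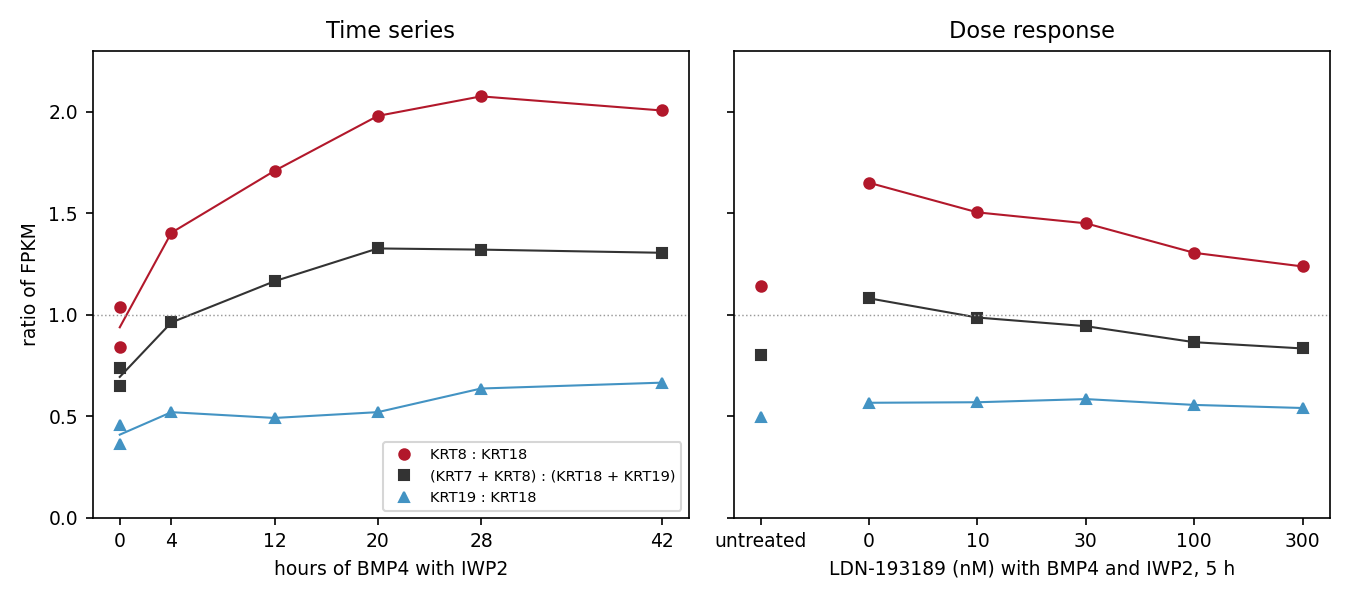
Ratios of FPKM within each library for KRT8 to KRT18, KRT19 to KRT18, and KRT7 plus KRT8 to KRT18 plus KRT19, by hours (left) and by LDN-193189 dose with the untreated library apart (right). Points are single libraries, lines start at the mean of the 2 libraries at 0 h, and the dotted line marks a ratio of 1. The KRT8 to KRT18 ratio is between 0.840 and 1.04 at 0 h and 2.01 at 42 h, and it goes from 1.65 at 0 nM to 1.24 at 300 nM LDN.

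In the dose response, KRT8 alone among the 4 tested members followed the LDN dose. It stood at 583 CPM with 0 nM, 533 with 10 nM, 511 with 30 nM, 465 with 100 nM and 434 with 300 nM LDN, lower at every step, and at 357 CPM in the untreated library. With the dose step as a linear term over the 5 libraries with BMP4 (edgeR quasi-likelihood test, adjustment over 14877 genes), KRT8 fell by 0.41 ± 0.04 (SE) on the log2 scale from 0 to 300 nM (adjusted p = 7.95e-06), where 10.9% of tested genes fell and 10.4% rose with LDN. Its highest value at these doses, all read at 5 h, was 1.34 times its lowest, a small change beside that over 42 h. At 4 h of the time series KRT8 (378 CPM) still lay between its 0 h libraries.

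The other simple keratins did not pass the test over dose. KRT18 stood between 269 and 273 CPM at the 5 doses (log2 change 0.02 ± 0.04, adjusted p = 0.696) and at 238 CPM untreated. KRT19 stood between 143 and 152 CPM (-0.04 ± 0.05, adjusted p = 0.556) and at 114 CPM untreated. KRT7 stood between 11.3 and 13.2 CPM (0.04 ± 0.12, adjusted p = 0.86) and at 13.8 CPM untreated. The ratio of KRT8 to KRT18 was 1.65, 1.50, 1.45, 1.30 and 1.24 from 0 to 300 nM, lower at every step. Its slope was -0.41 over the dose range (exact permutation p = 0.0167, the smallest that 5 libraries allow, adjusted 0.0317). The test was chosen after these falling ratios were seen, so its p is not separate support. The ratio of KRT7 to KRT8 gave 0.47 and that of type II to type I -0.37, with the same exact permutation p of 0.0167. Both hold the same KRT8 values. KRT19 to KRT18 gave -0.07 (exact permutation p = 0.25). In the untreated library KRT8 to KRT18 was 1.14, below all 5 doses.

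KRT80 had the steepest profile over LDN, though at few counts. It had 22 counts with 0 nM, 15 with 10 nM, 8 with 30 nM, 3 with 100 nM and 3 with 300 nM LDN, and 0 in the untreated library. The level at 0 nM was 8.46 times that at 300 nM (exact 95% counting interval 2.54 to 44.1). KRT80 was under the filter of 1 CPM, and in the fit without that filter its log2 change over the dose range was -3.30 ± 0.78 (adjusted p = 0.00234). KRT17 had 5, 8, 6, 2 and 10 counts over the doses and 8 untreated, with overlapping intervals. KRT23 and KRT14 were at 0 in all 6 libraries, which allows up to 0.0883 to 0.192 CPM (3 counts per library).

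BMP4 with IWP2 for 5 h was set against the untreated library without a test, as there was 1 library on each side. KRT8 was 583 CPM (95% Poisson interval 575 to 592) against 357 (348 to 367), a log2 ratio of 0.62 on the TMM scale with 0.5 CPM added. The log2 ratio was 0.29 for KRT19, 0.09 for KRT18 and -0.25 for KRT7. None of the 4 was past a 2-fold difference, which 4.05% of the 14877 genes passed in the higher direction. KRT80, with 22 counts against 0, stood 3.98-fold above the limit that a count of 0 allows (3 counts in the untreated library). This takes the 22 counts as exact. The 95% Poisson intervals were 0.480 to 1.16 CPM at 0 nM and 0 to 0.236 CPM untreated. The untreated library also had the highest mitochondrial share (7.89%) and the lowest total, and the part of these in the ratios was not tested.

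Of 45 other keratins, most were at or near 0 counts: 23 had no count in any library, 37 had at most 3 counts in every library and 3 exceeded 1 CPM in a library. KRT10, a type I keratin of suprabasal epidermis, stood between 2.81 and 4.37 CPM in the time series (trend 0.03 ± 0.34, adjusted p = 0.947), and between 17.0 and 19.0 CPM in the dose response. KRT15, a basal type I keratin, reached 2.18 CPM at 28 h and 1.09 CPM at 42 h and was not tested. KRT16 had no counts at 0 h, 14 counts (0.237 CPM) at 28 h and 563 counts (9.20 CPM) at 42 h, and 0 counts in the dose response. Taken as exact, its 42 h value was 116-fold above the limit of 3 counts per library at 0 h. KRT16 and KRT17 are neighbours in the type I cluster and were both highest at 42 h, while KRT14, whose sequence is close to both, stayed at 0 there.

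Pseudogene copies of KRT8 and KRT18 took few of the reads. The 51 KRT8 pseudogene features together went from 13.9 and 18.3 CPM at 0 h to 89.8 CPM at 42 h, 1.28% of the counts of KRT8 there and 5.04% and 3.87% at 0 h. The most counted were KRT8P3, at 70.5 CPM in the 42 h library, and KRT8P46, at 11.5 CPM. The 67 KRT18 pseudogene features stood at 5.88 and 4.99 CPM at 0 h, then 9.91 CPM (4 h) and 4.38 CPM (42 h), led by KRT18P15 (1.81 CPM at 4 h) and KRT18P31 (1.59 CPM at 4 h). Adding them to their parents changed the KRT8 to KRT18 ratio at 42 h from 2.01 to 2.04. The antisense RNA KRT7-AS, which overlaps KRT7, had 9 and 37 counts at 0 h and 281 at 42 h (4.59 CPM), and without a stated strand setting its reads and those of KRT7 cannot be told apart.

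The genes whose profile over the 6 time points was most like that of each abundant keratin were found by Pearson correlation of log2(CPM + 1). Here CPM was scaled with TMM and the 0 h libraries were averaged. The set held 1067 genes whose mean was 10 CPM or more and whose range on this scale was 4-fold or more. The points share their libraries, so the r values are descriptions. For KRT8 they were CLDN23 (r = 0.9978), a claudin, NRIP1 (0.9972), a nuclear receptor cofactor, and RAB31 (0.9966), a small GTPase of vesicle transport. For KRT18 they were SPARC (0.9980), a matrix glycoprotein, PPFIBP2 (0.9976), a liprin, and KRT19 (0.9963). For KRT19 they were SPARC (0.9995), LIMA1 (0.9989), an actin-binding LIM protein, and the antisense RNA FUT8-AS1 (0.9984). For KRT7 they were WIPF1 (0.9980), an actin regulator, WNT6 (0.9980), a Wnt ligand that reached 273 CPM at 42 h, and CEBPD (0.9979), a transcription factor that reached 151 CPM. Among the keratins, KRT18 and KRT19 were the most alike (0.9963), and KRT7 and KRT8 the least (0.9388).

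Genes that anchor keratin filaments changed in a mixed manner. Of 23 desmosome and linker genes, 18 were tested over time, of which 8 rose and 2 fell (median log2 change 0.72), beside 19.2% and 17.5% of all tested genes. The largest changes at 42 h against 0 h were those of PKP1 and PKP2, plakophilins of the desmosomal plaque, and of ITGA6. PKP1 went from 1.19 and 0.869 CPM at 0 h to 11.2 CPM at 42 h (3.70 ± 0.38, adjusted p = 3.9e-21). PKP2 went from 37.5 and 34.2 to 278 CPM (3.19 ± 0.32, adjusted p = 2.41e-21). ITGA6, an integrin subunit that also occurs in hemidesmosomes, fell from 269 and 227 to 31.3 CPM (-2.75 ± 0.39). ITGB4, the other integrin subunit on this list, stood far lower, at 3.11 and 3.49 CPM at 0 h and 2.81 CPM at 42 h. The part of the ITGA6 fall in keratin anchoring was not tested. Over LDN, 19 were tested, 6 rose and 2 fell, beside 10.4% and 10.9% of all tested genes, with PKP1 and PKP2 not called. ITGA6 was higher at higher doses of this BMP receptor inhibitor (0.79 ± 0.05, adjusted p = 3.3e-07) and lower over time with BMP4. KRT8 had the reverse sign in each series.

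Among 16 epithelial transcription factors, 14 were tested over time and 11 rose (median 2.98), none fell, and 13 of 14 were higher at 42 h than at 0 h, where 19.2% of all tested genes rose over time and 19.9% were higher at 42 h. TP63, the master factor of stratified epithelia, stood at 0.132 and 0.0981 CPM at 0 h, then at 3.69 CPM (28 h) and 70.2 CPM (42 h). Its log2 change at 42 h against 0 h was 9.52 ± 0.42. TP63 passed the filter only through its 42 h library, and it is among the 11 and the 13 genes counted above. TFAP2A, an early factor of surface ectoderm and amnion, was at 0.158 and 0.140 CPM at 0 h, then 45.7 CPM (4 h) and 367 CPM (42 h), and GRHL3, a grainyhead factor, was at 2.05 and 1.12 CPM, then 42.6 CPM (4 h) and 153 CPM (42 h). Neither TFAP2A nor GRHL3 passed the linear trend (adjusted p = 0.114 and 0.062), and both passed at 42 h against 0 h (11.50 ± 0.47 and 6.86 ± 0.37, adjusted p = 1.49e-124 and 1.53e-72). Over LDN, 8 of 13 tested factors fell and 1 rose (median -0.71), beside 10.9% and 10.4% of all tested genes, with TFAP2A at -4.94 ± 0.38 and GRHL3 at -3.15 ± 0.14 (adjusted p = 2.03e-06 and 3.87e-08), while TP63 had at most 3 counts in each of those libraries. The stratified differentiation genes were mostly too low to test: of 19 on the list, 18 were found by symbol, 4 were tested over time and 2 rose (background 19.2%). These were TGM1, a cross-linking enzyme of the cornified envelope, with 0.316 and 0.477 CPM at 0 h and 23.3 CPM at 42 h (6.06 ± 0.39, adjusted p = 1.98e-52), and SFN, an epithelial 14-3-3 protein (1.39 ± 0.33, adjusted p = 0.000129). CNFN, a cornified envelope gene, was not called (-0.50 ± 0.42, adjusted p = 0.376).

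Of 16 other intermediate filament genes, 15 were tested, 6 rose and 2 fell over time (median 0.13), beside 19.2% and 17.5% of all tested genes. VIM, the filament of mesenchymal and many cultured cells, fell from 96.5 and 75.2 CPM at 0 h to 15.0 CPM at 42 h (-2.28 ± 0.37, adjusted p = 6.2e-09). SYNM and SYNC, linkers of intermediate filaments, rose (2.95 ± 0.30 and 3.37 ± 0.35, adjusted p = 4.37e-21 and 4.49e-20). Over LDN, 14 were tested, of which 5 fell, as KRT8 did, and 2 rose, beside 10.9% and 10.4% of all tested genes. VIM was called higher with dose (0.49 ± 0.06, adjusted p = 8.01e-05), against 0.41 lower for KRT8, so that VIM and KRT8 moved in opposite directions in both series.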

How the data were processed

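Gene-level tables of a time series (7 libraries) and a dose response (6 libraries) were used. Reads had been trimmed (Cutadapt) and aligned to GRCh38 (STAR 2.7.8a) by the authors, who deposited expected counts and FPKM from RSEM 1.3.3, 1 column per library (versions from the submitters' processing notes; the annotation release is not given in the sources used here). The deposited expected counts were whole numbers. FPKM as deposited were used for levels between genes and, with 0.1 or 1 added, for limma 3.58.1. Counts were tested with edgeR 4.0.16 (R 4.3.3; quasi-likelihood test, TMM, mean CPM of 1 or more on the library total, Benjamini-Hochberg adjusted p under 0.05): hours as a linear term, LDN dose step as a linear term, and each time as a factor against 0 h. The scripts were tested on simulated counts, with the same dispersion set for every gene and not estimated from these data. The time trend over 15976 genes found 82 of 100 genes changed by a log2 of 1 and 100 of 100 changed by 2. The LDN trend over 14877 genes found 53 and 98, and 42 h against 0 h over 15976 genes 65 and 100. Calls among unchanged genes numbered 9, 9 and 6, and 18 for the time trend with DESeq2. The rates in these data can differ. Alternatives were DESeq2 1.42.0, other scalings and filters, other shapes of the trend, pseudogene counts added to their parents, and leaving out libraries. The 5 features that are not human genes were kept in totals and left out of tests.

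Depth was 37957385 to 71333471 counts (time series) and 15600931 to 33989998 (dose response), so that 3 counts, the limit allowed by a count of 0, are 0.0421 to 0.192 CPM. Named genes were the 9 keratins, the 3 genes most alike in profile for each keratin averaging 10 CPM or more, from each list the 3 tested genes with the largest change at 42 h, and the 2 most counted pseudogenes of each parent. KRT15, VTCN1, FOXA2 and ITGB4 were named after their values were seen. The members and lists were chosen with earlier results of these data known. Gene lists overlap: TFAP2A and TFAP2C are on the lists of epithelial factors and amnion markers, and KRT10 and DSG3 are each on more than 1 list. Sequences and positions came from GENCODE 44. A comparison of the KRT8 sequence with a pseudogene copy is not reported here.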

Additional observations from a re-analysis of the deposited data

Results flagged for a closer look

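KRT18 and KRT17 had opposite signs at the earliest times of the 2 experiments. For KRT18, the 4 h library was below both 0 h libraries, by a mean log2 ratio of -0.61 (-0.38 against replicate 1 and -0.84 against replicate 2), while 0 nM LDN at 5 h was above the untreated library by 0.09. For KRT17, the 4 h library was above both 0 h libraries by a mean log2 ratio of 1.46, and 0 nM LDN was below the untreated library (log2 ratio -1.65 with nothing added and -0.63 with 0.5 CPM added), on 17, 5 and 8 counts in the 4 h, 0 nM and untreated libraries. The 95% Poisson intervals of the last 2 overlap. The difference between the experiments was not tested. The experiments also differ in RNA selection, extraction kit and hour, which cannot be told apart.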

How the results depend on the processing

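No paired analysis was possible because the 0 h libraries are the only replicates. The 6 keratins called over time were called under every alternative in which they were tested (KRT17 did not pass the filter of 2.5 CPM), with 5 to 7 keratins called, and KRT8 was called over LDN under every alternative. Without the expression filter, 2 keratins were called over LDN, KRT80 being the second. Genes called over LDN numbered 3166, and 1075 and 1084 with limma on FPKM with 0.1 and 1 added. Leaving out libraries gave 1997 (without 0 nM) to 2948, with 2076 without 300 nM, and for the time trend 3343 (without 42 h) to 6621, against 5865. With DESeq2, genes called at 4 h numbered 455 (against 802) and at 12 h 971 (against 1547), and 1 keratin was called at 12 h, KRT8 giving 1.05 with adjusted p = 0.0614. With library totals the time trend called 2121 genes higher and 4069 lower (TMM, 3072 and 2793), and 42 h against 0 h 2415 and 3963 (TMM, 3173 and 2851). Genes past 2-fold against untreated numbered 895, and 1358 with FPKM, 1183 with 0.05 CPM added and 722 with 1 CPM added. Over time, KRT80 went from 7.54 to 3.27 and KRT17 from 5.31 to 2.72 with limma on FPKM with 1 added, and KRT7 from 5.57 to 4.37 without 42 h. Uncalled values near 0 changed sign. Over LDN, KRT18 was -0.0048 and -0.0047 with FPKM (0.1 and 1 added) and -0.047 with the untreated library added. Leaving out a dose gave -0.16 to 0.10 for KRT7 and -0.10 to 0.012 for KRT19, the sign changing without 300 nM. At 4 h, KRT8 was 0.010 with library totals. Leaving out a 0 h replicate gave, at 4 h, -0.34 to 0.17 for KRT7, -0.40 to 0.36 for KRT8 and -0.65 to 0.13 for KRT19, and at 12 h -0.39 to 0.13 for KRT7 and -0.99 to 0.38 for KRT17, the positive values being those without replicate 2. The cause of these changes was not tested. Each later time and dose is a single library, and depth limits what can be said of KRT23, KRT5, KRT14 and the dose profiles of KRT17 and KRT80.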
